A study of Mus musculus with 2 samples.

Results

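The Toll-like receptor to NF-kappaB pathway was followed in microglia of the mouse spinal cord as a list of 43 genes. The list was chosen by gene name: 10 Toll-like receptors, 4 co-receptor or trafficking proteins, 4 adaptors, 5 members of the IRAK and Tollip group, 5 IKK-type proteins, 5 NF-kappaB subunits, 5 proteins of the I-kappaB family, and 5 genes of the linked CARD and NOD arm. All 43 had at least 1 probe under that name, 59 probes in all, among the 34793 gene names and 55669 probes of the array. Microglia, the macrophages that reside in brain and spinal cord, had been sorted from a control group and an atopic diathesis model group of mice, and total RNA of each was measured on a 1-colour expression array. The comparison asks how the pathway's transcripts differ between them.

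The control group is 1 sample, titled as normal microglia, and the atopic diathesis group is 1 sample, titled as activated microglia. Atopic diathesis is a tendency towards allergic disease. Strain, age, the way the model was made and the number of animals behind each sample are not given in the sources used here. A single array stands for each group, so there is no replicate check and no test, and every value describes these 2 samples. In bulk RNA, fewer cells of a type and less RNA per cell cannot be told apart.

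Toll-like receptors are membrane proteins that recognise microbial molecules and some released by damaged cells. Most of them recruit the adaptor MyD88, which assembles IRAK kinases, and the signal passes through the ligase TRAF6 and the kinase TAK1 to the IKK complex. That complex marks I-kappaB proteins for destruction, which releases NF-kappaB dimers to enter the nucleus and switch on inflammatory genes, among them genes for I-kappaB proteins that end the response. Microglia are among the cells of the central nervous system best known for Toll-like receptor expression.

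In control 24.1% of the 55669 probes were well above background, which is the scanner software's own mark, against 27.6% in atopic diathesis, and 0 spots were saturated. Signals are fluorescence units after background subtraction. A gene is called measured if some probe of it cleared background on both arrays, which held for 9204 genes. Differences are log2 values, atopic diathesis minus control, relative to the median measured gene, whose raw difference was -0.03. A gene is called "higher" or "lower" from 2-fold on. Error could be taken only from spots of the same probe on an array, with an SD of 0.15 log2 units in control and 0.14 in atopic diathesis over 101 probes. It gives a 95% interval of 0.40 to either side of a difference between single spots, and it holds no variation between animals or sorts. The same width was used for every gene, whatever its brightness. For the Tlr2 probe, with 10 spots per array, the SD was 0.23 in control and 0.10 in atopic diathesis. All 12 microglial markers, P2ry12, Tmem119, Cx3cr1 and Sall1 among them, were well above background on both arrays, and their summed signal was 176156 in control and 160648 in atopic diathesis. A single Itgam probe, the only 1 of 3 measured, held 92919.5 and 82663.4 of these sums. Each of the 12 lay within 2-fold, from -0.44 for Tmem119 to 0.55 for Aif1.

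Markers of other cells were mostly not well above background. None of the 4 monocyte markers on the array, the 6 border macrophage markers, the 8 neutrophil markers or the 5 T cell markers on the array was well above background on either array. Their summed signals in control and atopic diathesis were 26.3 and 29.5 for monocytes, 29.5 and 27.2 for border macrophages, 61.3 and 72.6 for neutrophils and 32.3 and 48.2 for T cells. Of 6 B cell markers 1 was well above background in control (Pax5) and 2 in atopic diathesis, with sums of 44.6 and 84.1, and of 6 mast cell markers 0 and 1 (Mcpt4), with sums of 43.8 and 98.8. Of 6 astrocyte markers 2 and 3 were (summed signal 808 and 1022), of 6 oligodendrocyte markers 4 and 5 (892 and 948), and of 6 endothelial markers 1 and 1, which were different genes (352 and 157). Of 6 neuronal markers only Snap25 was, at 82155 in control and 84015 in atopic diathesis. The part of these cells in the differences below was not tested.

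Most of the measured genes lay within 2-fold. Of the 43 genes 25 were measured: the receptors Tlr4 and Tlr2, the Tlr4 partner Ly96 and the kinase Irak4 were higher in atopic diathesis, the kinase gene Chuk and the NF-kappaB subunit gene Rela were lower, and 19 lay within 2-fold. The 4 higher genes are 16% of the measured members, against 17.3% of all measured genes, and the 2 lower ones are 8%, against 15.6% of all measured genes. Together 24% of measured members lay past 2-fold, against 32.9% of all measured genes. The members' median difference was 0.25, where the median of all measured genes is 0 by construction, and their median absolute difference was 0.40, against 0.60 for all measured genes. So the count of higher members is near the background, and the list is described gene by gene. A further 2 members were well above background in atopic diathesis only (4.65% of the list, against 8.06% of all gene names), 1 in control only (2.33%, against 4.15%), and 15 on neither array.

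**Figure D1:**
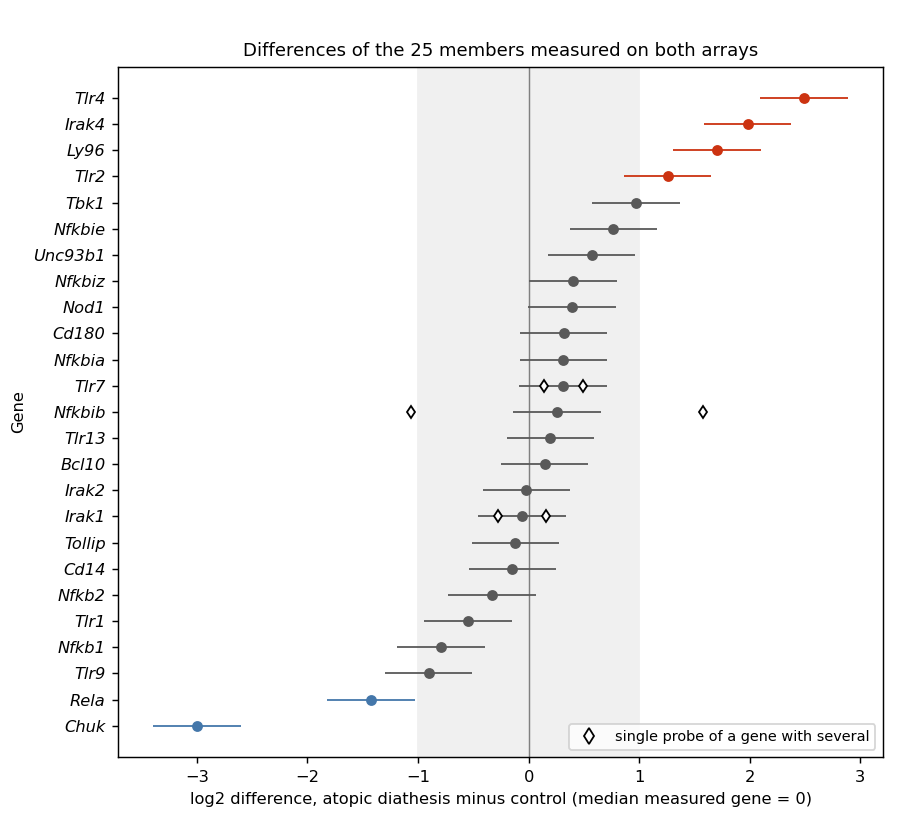
Difference of each of the 25 measured genes of the pathway, atopic diathesis minus control on the log2 scale with the median measured gene at 0. Bars are 95% intervals from the spread of repeated spots only, the grey band marks 2-fold, red and blue points are higher and lower genes, and diamonds are single probes of genes measured by several. Tlr4 at 2.49 and Chuk at -3.0 are the ends of the range, and the Nfkbib diamonds lie on opposite sides.

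The share of genes past 2-fold depended on brightness. With the measured genes ranked by mean signal and cut into 5 equal classes, it was 20.2%, 46.0%, 46.5%, 36.7% and 15.3% from the dimmest class to the brightest. Measured genes cleared background on both arrays, so dim genes that did so on 1 array only are missing from these shares. This can hold down the share of the dimmest class. The 25 measured members fell into these classes as 1, 6, 4, 8 and 6 genes, of which 0, 1, 2, 2 and 1 lay past 2-fold. Rela was the member past 2-fold in the brightest class, Chuk and Ly96 were in class 4, Tlr2 and Tlr4 in class 3 and Irak4 in class 2.

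**Figure D2:**
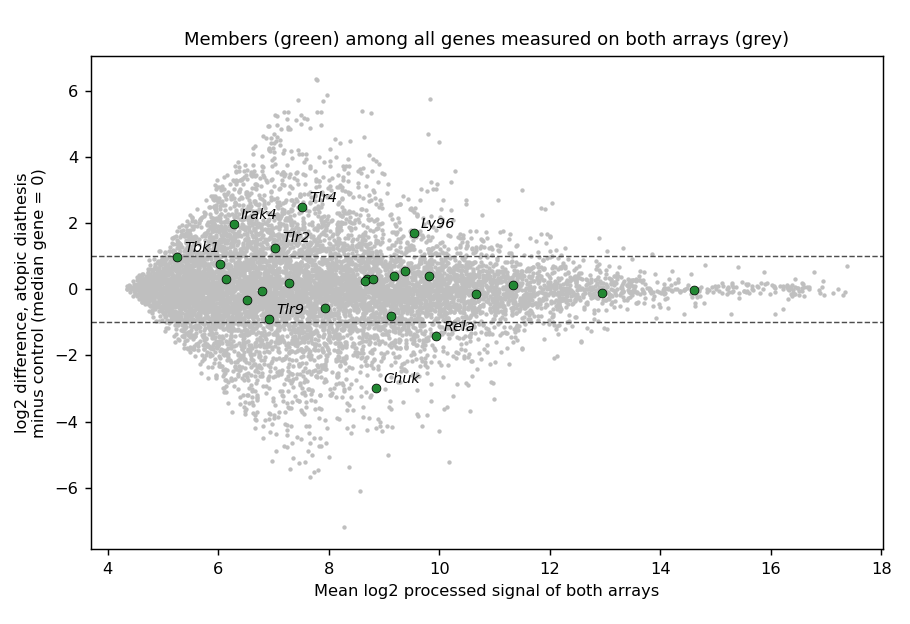
Difference against mean log2 signal for the 9204 genes measured on both arrays (grey) with the 25 measured pathway genes in green. Dashed lines mark 2-fold, and names are given for members at or past 0.90 in size. The cloud is widest at low to middle signal and narrow at the bright end, where Tollip, Bcl10 and Irak2 lie near 0.

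The receptors at the top of the pathway were split between detected and undetected genes. Of 10 Toll-like receptor genes 6 were measured, with 2 higher and 4 within 2-fold. That is 33.3% higher and 0% lower, against 17.3% and 15.6% of all measured genes, a description of 6 genes only. Tlr4, the receptor for bacterial lipopolysaccharide, read 77.9 in control and 428 in atopic diathesis, 5.62-fold higher (log2 2.49, 95% spot interval 2.10 to 2.89). Its probe at chr4:66503470-66503529 (build mm9, plus strand) was printed in 2 spots, which read 74.1 and 82.0 in control and 399 and 460.0 in atopic diathesis, so the spots of the arrays did not overlap. A second probe named Tlr4, further along the strand at chr4:66590077-66590136, did not read well above background on either array, at 3.90 and 3.95, and whether it lies in a Tlr4 transcript was not checked. The difference was 1.19 with no background filter, which averages in this probe, 1.66 without background subtraction and 1.68 with normexp and quantile normalization together, all still past 2-fold.

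Tlr2 recognises bacterial lipoproteins together with Tlr1 or Tlr6. Its probe, at chr3:83640344-83640403 on the minus strand, was printed in 10 spots per array. They ranged from 68.6 over a median of 85.6 to 121 in control and from 173 over a median of 202 to 222 in atopic diathesis. Every spot on the atopic diathesis array was brighter than every control spot, and the difference was 1.26, or 2.39-fold higher, with an interval of 0.86 to 1.65 for single spots that crosses the 2-fold line. It lay within 2-fold with scaling to the 75th percentile of all probes (0.76), with normexp background correction and quantile normalization together (0.63) and without background subtraction (0.73). Of its partners, Tlr1 was measured, at 299 in control and 199.9 in atopic diathesis (-0.55, and -1.05 with the 75th percentile of all probes). Tlr6, its neighbour among coding genes, did not read well above background on either array (4.40 and 7.10).

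**Figure D3:**
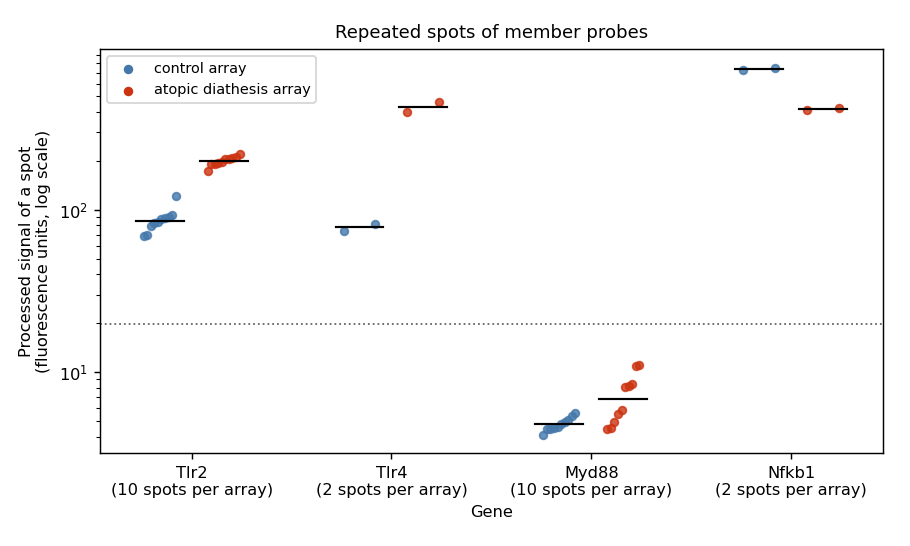
Signal of each spot for the pathway probes printed more than once per array, on a log axis, with spots sorted by value and a line at the geometric mean. Tlr2 and Myd88 have 10 spots per array, Tlr4 and Nfkb1 have 2, and the dotted line is the lowest signal called well above background. The Tlr2 spots of the arrays do not overlap, and all Myd88 spots lie under the dotted line.

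The receptors of the endosome recognise nucleic acids, and the 3 measured ones lay within 2-fold. Tlr9, the receptor for DNA with unmethylated CpG, read 167 in control and 87.5 in atopic diathesis, a difference of -0.90 with an interval of -1.30 to -0.51. It was the member closest to the 2-fold line among those below the median gene, and it crossed the line in 4 of 13 other settings, as with quantile normalization (-1.19). Tlr7, a receptor for single-stranded RNA, was measured by 2 probes that read 203 and 279 (0.49), and 812 and 871 (0.13), in control and atopic diathesis, and the remaining probe was not well above background (4.37 and 9.38). Tlr13, which recognises bacterial ribosomal RNA, read 146 and 164 (0.20).

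Tlr3, which binds double-stranded RNA, and Tlr5, the flagellin receptor, did not read well above background on either array, and neither did Tlr8, the neighbour of Tlr7. Tlr3 read 4.15 in control and 12.9 in atopic diathesis. Tlr5 read 4.55 and 4.52, and the brighter of the 2 Tlr8 probes read 8.86 and 21.1. Such signals give no fold.

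The proteins that serve the receptors were measured in full, 1 of 4 higher and 3 within 2-fold. That is 25% higher and 0% lower, against 17.3% and 15.6% of all measured genes. Ly96 encodes MD-2, the protein that holds lipopolysaccharide on Tlr4. Its signal was 416 in control and 1326 in atopic diathesis, 3.26-fold higher (log2 1.70, interval 1.31 to 2.10), and it was past 2-fold in all 13 other settings. The Ly96 probe spans a junction between exons at chr1:16696289-16699561 (mm9, plus strand) and is shown because this gene joins Tlr4 among the higher ones:

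Ly96 probe: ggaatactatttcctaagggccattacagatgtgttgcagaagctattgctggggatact

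A probe that joins separate exons reads spliced transcript. Cd14, which passes lipopolysaccharide to Tlr4 and Ly96, read 1720.4 in control and 1519 in atopic diathesis, a difference of -0.15 that lies within the spot interval. So within the lipopolysaccharide receptor Tlr4 and Ly96 were higher, whereas Cd14 was not. Cd180, a Toll-like receptor homologue that restrains Tlr4 in some cells, read 64.0 and 77.9 (0.32). Unc93b1, the chaperone that carries nucleic acid receptors to endosomes, read 553 and 803 (0.57). The Unc93b1 probe shares a run of 16 bases with promoter sequence of 28 other genes in the RefSeq table, and whether its signal comes from 1 gene was not tested.

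The adaptors were mostly not well above background. None of the 4 was measured on both arrays. Myd88, the adaptor of most Toll-like receptors, was printed in 10 spots per array, of which 0 were well above background on either: they ranged from 4.10 to 5.61 in control and from 4.46 to 11.1 in atopic diathesis. Tirap, which bridges Tlr2 and Tlr4 to MyD88, was well above background in atopic diathesis only, at 19.0 and 34.3, at least 1.77-fold higher. Here and below, "at least" compares the bright signal with the higher of the dim signal and the lowest signal well above background on the dim array, which was 19.8 in control and 19.9 in atopic diathesis. It makes no allowance for spot error. Ticam1, the adaptor of Tlr3, read 5.53 and 12, and Ticam2, which links it to Tlr4, read 13.7 and 14.1, neither well above background.

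Among the IRAK kinases that the adaptors recruit, taken with Tollip, 1 of 4 measured genes was higher and 3 lay within 2-fold. That is 25% higher and 0% lower, against 17.3% and 15.6% of all measured genes. Irak4, the kinase that starts the cascade, read 39.4 in control and 152 in atopic diathesis, 3.95-fold higher (log2 1.98, interval 1.58 to 2.38), at chr15:94397743-94397802 (mm9, plus strand). A second Irak4 probe, across an exon junction upstream of it at chr15:94384447-94385174, did not read well above background on either array, at 4.03 and 4.36. The difference lay just within 2-fold with normexp and quantile normalization together (0.89), without background subtraction (0.98) and with no background filter (0.99), which averages in the dim probe. Higher Irak4 therefore rests on 1 spot per array of a dim probe.

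Irak1, the kinase that Irak4 activates, was measured by 2 probes that read 111 and 120.3 (0.15) and 117 and 94.1 (-0.28), a mean of -0.06. The other Irak1 probe was well above background in control only, at 28.0 and 18.6. Irak2 read 25569 in control and 24654 in atopic diathesis (-0.02) at one probe, while the other, at 19.7 and 11.7, did not read well above background on either array. Tollip, an adaptor that restrains IRAK signalling, read 8288 and 7461 (-0.12), and its other 2 probes were not well above background. With no background filter, which averages them in, Tollip was at -1.06. Irak3, the inhibitory member of the family, did not read well above background on either array (4.23 and 9.23). For Irak2, Irak4 and Tollip, then, different probes under 1 gene name ranged from detected to undetected.

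**Figure D4:**
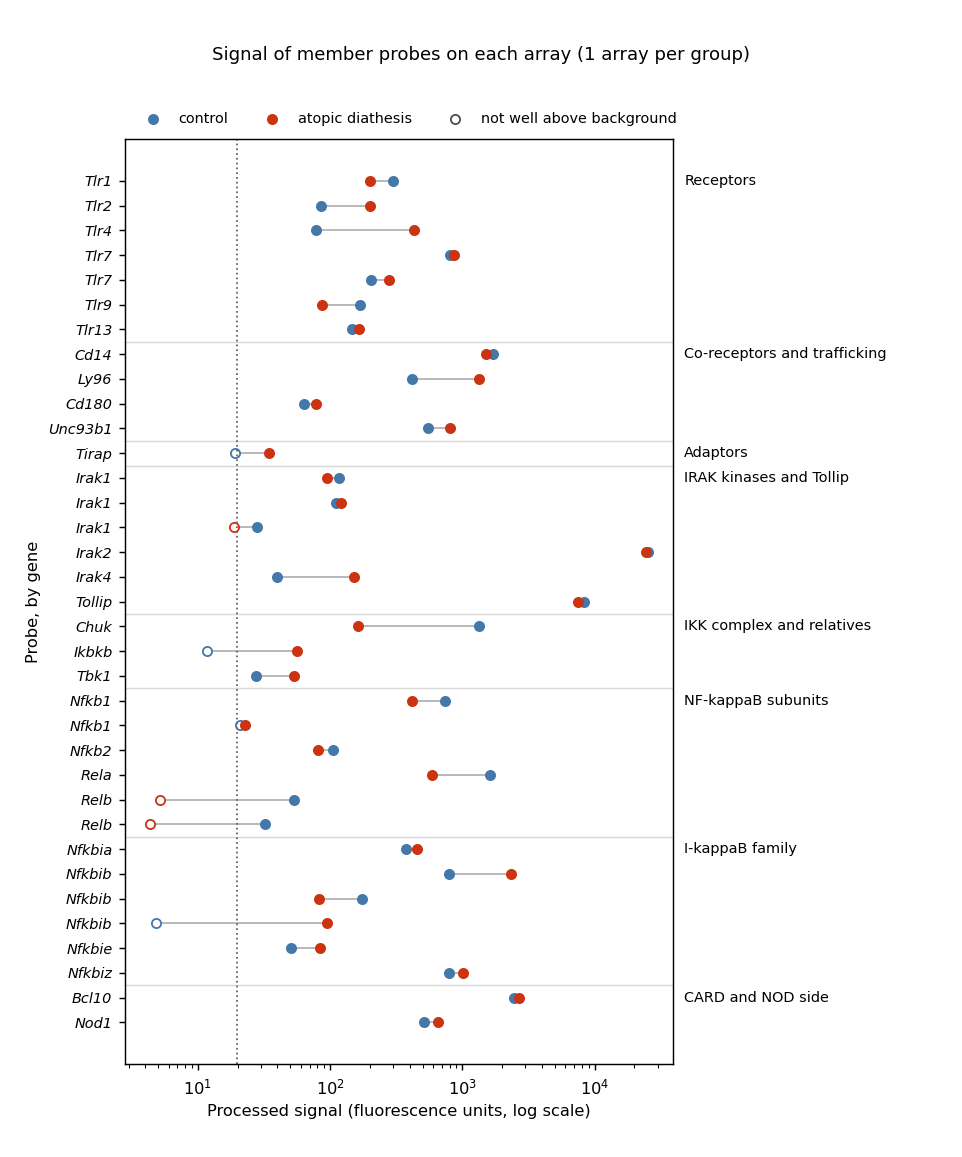
Signal on the control array (blue) and the atopic diathesis array (red) for the pathway probes that were well above background on at least 1 array, on a log axis, 1 line per probe and grouped by role. Open circles were not well above background, and the dotted line is the lowest signal so called. Long lines to the right mark 1 Nfkbib probe and Ikbkb, both not well above background in control, with Tlr4, Irak4 and Ly96, and long lines to the left mark Chuk, Rela and both Relb probes, and the signals of different probes are not comparable with each other.

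The IKK group held the gene with the lowest difference in the list. Chuk, which encodes IKK alpha, the kinase of the noncanonical branch, read 1326 in control and 162 in atopic diathesis, 8.0-fold lower (log2 -3.0, interval -3.40 to -2.60). Its single probe lies at chr19:44147897-44147956 (mm9, minus strand), and the gene was lower in all 13 other settings, between -3.50 and -2.52. Ikbkb, which encodes IKK beta, the kinase of the canonical branch, ran the other way: 11.8 in control, not well above background, and 56.3 in atopic diathesis, at least 2.91-fold higher. Both kinases rest on 1 spot each per array.

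Tbk1, a relative of the IKK kinases that acts in interferon induction, read 27.6 in control and 53.0 in atopic diathesis, 1.96-fold (log2 0.97), just inside the 2-fold line. Its probe crosses an exon junction at chr10:120988364-120988587 (mm9, minus strand) and is shown as the member nearest to the threshold:

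Tbk1 probe: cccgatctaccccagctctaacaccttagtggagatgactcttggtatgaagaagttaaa

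Tbk1 was past 2-fold in 1 of 13 other settings (1.05), and with normexp and quantile normalization together it was at 0.22. Ikbkg, which encodes the scaffold NEMO, was not well above background at either of its 2 probes (4.33 and 4.38 at the brighter one), nor was Ikbke, the second IKK relative (6.80 and 7.49). Of the IKK complex itself, then, Chuk was lower, Ikbkb was detected in atopic diathesis only and Ikbkg was not detected.

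The 3 measured NF-kappaB subunit genes lay below the median gene, as do 4602 of the 9204 measured genes by construction. Each of the 3 kept that side in all 13 other settings, though only Rela was past 2-fold. That is 33.3% lower, against 15.6% of all measured genes, a description of 3 genes only. Rela, the main activating subunit of the canonical pathway, read 1631 in control and 594 in atopic diathesis, 2.69-fold lower (log2 -1.43, interval -1.82 to -1.03), at chr19:5648070-5648129 (mm9, plus strand), and it was past 2-fold in all 13 other settings. Nfkb1, its usual partner, read 742 and 419 (-0.79). The 2 Nfkb1 spots were 731 and 753 in control and 414 and 424 in atopic diathesis, so they did not overlap, although the difference is within 2-fold (-1.29 with the 75th percentile of all probes). Its second probe, well above background in atopic diathesis only, read 21.0 and 22.8. Nfkb2, of the noncanonical pathway, read 105 and 81.1 (-0.33), which is within the spot interval.

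Relb, the noncanonical partner of Nfkb2, was well above background in control only, at least 2.64-fold lower. Its brightest probe read 53.7 in control and 5.22 in atopic diathesis, and another read 32.1 and 4.35. These probes lie at chr7:20191773-20191832 and chr7:20191722-20191781 (mm9, minus strand) and overlap, so they are not separate evidence. The other Relb probe, at chr7:20203058-20203117, read 22.4 and 19.9, not well above background on either array. Rel, the subunit prominent in lymphocytes, did not read well above background on either array (8.06 and 4.33). No measured subunit gene was higher in atopic diathesis (0 of 3, against 17.3% of all measured genes).

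The I-kappaB family holds NF-kappaB in check, and its 4 measured genes lay within 2-fold, where 32.9% of all measured genes lay past it. Nfkbia, Nfkbie and Nfkbiz were above the median gene, whereas with scaling to the 75th percentile of all probes Nfkbia (-0.19) and Nfkbiz (-0.10) were below 0. The probes of Nfkbib were opposed, as given below. That scaling puts the median of all measured genes at -0.50. Nfkbia, the I-kappaB protein best known for NF-kappaB feedback, read 374 in control and 454 in atopic diathesis (0.31). Nfkbie read 50.7 and 84.3 (0.77, interval 0.37 to 1.16), though 0.37 with quantile normalization and 0.13 with normexp and quantile normalization together. Nfkbiz, a nuclear I-kappaB protein that works with NF-kappaB on chromatin, read 788 and 1019 (0.40). Bcl3, another nuclear member, did not read well above background on either array (4.10 and 4.07).

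Nfkbib has no single direction, because its probes disagreed. One probe read 799 in control and 2324 in atopic diathesis (1.57, or 2.97-fold higher), and another read 176 and 82.2 (-1.06, or 2.09-fold lower). The mean of 0.25 describes neither. The last probe, at chr7:29543270-29543329, read 4.81 and 95.5 and was well above background in atopic diathesis only. The opposed probes are shown because they measure different stretches of the transcript: the first lies within one block at chr7:29544160-29544219, and the second, further upstream in the transcript, crosses an exon junction at chr7:29545252-29546647 (mm9, minus strand).

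Nfkbib probe, higher in atopic diathesis: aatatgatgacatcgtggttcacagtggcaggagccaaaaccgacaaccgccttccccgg
Nfkbib probe, lower in atopic diathesis: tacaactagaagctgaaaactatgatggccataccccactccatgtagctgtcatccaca

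Taken by its brightest probe, Nfkbib was higher (1.57), and it was past 2-fold in 3 of 13 other settings. Which isoforms each probe reads was not analysed here.

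The CARD and NOD genes join NF-kappaB from antigen receptors and from cytoplasmic sensors of bacterial cell walls. Of 5, the 2 measured lay within 2-fold, where 32.9% of all measured genes lay past it. Bcl10, the CARD scaffold, read 2465 in control and 2665 in atopic diathesis (0.15). Nod1, a sensor of bacterial peptidoglycan, read 511 and 655 (0.39). Malt1, the partner of Bcl10, did not read well above background on either array (4.68 and 6.01), nor did Nod2 (4.43 and 4.49) or Ripk2, the kinase that serves both NOD sensors (10.2 and 7.0).

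The pathway was then read further along, in 44 genes of the ubiquitin and TAK1 step, of feedback inhibition, of neighbouring factors and of targets. Of these, 24 were measured: 5 higher, 7 lower and 12 within 2-fold, so that 50% lay past 2-fold, with a median of 0.32. Another 6 were well above background in atopic diathesis only (13.6%, against 8.06% of all gene names) and 3 in control only (6.82%, against 4.15%), 10 on neither array, and 1 had no probe of that name. The share past 2-fold is above the 32.9% of all measured genes and the 24% of the 43, a description that carries no test. The list was chosen with earlier results of these data known. Its shares, here and in the groups below, are therefore no independent contrast with all genes. Differences of single genes were compared under the 13 other settings for the 43 only, not for these 44.

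At the ubiquitin and TAK1 step, 1 of 10 measured genes was higher (10%, against 17.3% of all measured genes) and 3 were lower (30%, against 15.6%). Traf6, the ligase between IRAK kinases and TAK1, read 175 in control and 43.2 in atopic diathesis (-1.99, or 3.96-fold lower). Only 1 of its 3 probes was measured. Tab3, a TAK1-binding protein, read 89.8 and 40.4 (-1.12). The linear ubiquitin ligase was split: Rnf31, its catalytic subunit, read 25.4 and 60.4 (1.28), whereas Sharpin, a regulatory subunit, read 682 and 296 (-1.17). Only 1 of the 2 Rnf31 probes was measured. The spot intervals of Tab3, Rnf31 and Sharpin cross the 2-fold line.

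Of the 16 genes of that step, 3 were well above background in atopic diathesis only (18.75%, against 8.06% of all gene names) and 1 in control only (6.25%, against 4.15%). Of those in atopic diathesis only, Map3k7, which encodes TAK1 itself, read 19.0 in control and 43.6 in atopic diathesis at 1 of its 3 probes, at least 2.26-fold higher. Peli2, a ligase that acts on IRAK kinases, read 6.84 and 43.0, at least 2.22-fold higher. Tradd, an adaptor of tumour necrosis factor receptors, read 7.85 and 524, at least 27.1-fold higher.

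Of 7 measured inhibitors 4 were lower and 1 was higher, where 15.6% of all measured genes were lower and 17.3% higher. Zc3h12a, a ribonuclease that degrades inflammatory mRNA, read 1290.5 in control and 429.6 in atopic diathesis (-1.55). Tnfaip8l2, a brake on Toll-like receptor signalling, read 1883 and 808 (-1.19). Tnfaip3, which encodes A20, read 509 and 235 (-1.08), and Cyld, another deubiquitinase, read 259 and 123 (-1.04). The spot intervals of Tnfaip8l2, Tnfaip3 and Cyld cross the 2-fold line, and the differences of Tnfaip3 and Cyld are close to it. Tnip1, a binding partner of A20, went the other way at 69.0 and 152 (1.17), with a spot interval of 0.78 to 1.57. Tnip2, its relative, was well above background in atopic diathesis only. It read 14.6 and 114 at 1 of its 2 probes, at least 5.88-fold higher.

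Among the other factors and targets, Irf3, the interferon-inducing factor that Tbk1 activates, read 73.8 in control and 325 in atopic diathesis (2.17, or 4.50-fold higher). Il1b, the cytokine interleukin-1 beta, read 26.4 and 249 (3.27, or 9.67-fold higher). Its 1 probe was dim in control, not far over the 19.8 where detection began there. Without background subtraction the difference of Irak4, a dim member of the 43, fell from 1.98 to 0.98. Il1b, Irf3 and Birc3 were not tested that way, so the size of their folds is uncertain. Birc3, an inhibitor of apoptosis and known NF-kappaB target, read 35.8 and 178 (2.35) at the 1 of its 2 probes that was measured. Targets did not move as 1 group. Of 4 measured, Il1b and Birc3 were higher, while Tnf (0.54) and Icam1 (-0.80) lay within 2-fold. That is 50% higher and 0% lower, against 17.3% and 15.6% of all measured genes, a description of 4 genes only.

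Ptgs2, the inducible cyclooxygenase, was well above background in atopic diathesis only at 4.44 and 82.3, at least 4.26-fold higher. Il6, by contrast, was well above background in control only at 37.7 and 4.44, at least 1.85-fold lower. Tlr12, a receptor outside the 43, was well above background in control only at 41.1 and 14.9, at least 2.02-fold lower. Apart from spot error, which they leave out, these bounds are lowest values, so their order says nothing of the order of the true folds.

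Several genes of the pathway carry the kappaB consensus, the 10-base element that NF-kappaB dimers bind, close to their own start. RefSeq promoter sequence of build GRCm38.p6 was in the table for 31 of the 43. On either strand, in the 250 bases before a start site, 7 of the 31 held at least 1 match (22.6%), against 1204 of 27025 genes in the table (4.46%). Among the 7, Tlr2 was higher (1.26), Nfkbie (0.77), Nfkbia (0.31), Bcl10 (0.15) and Nfkb2 (-0.33) lay within 2-fold, and Tlr3 and Rel did not read well above background on either array. A match describes the letters only. The matches are shown with 10 bases to either side where the window holds them, the matched letters in capitals (11 where matches on both strands overlap), to set the feedback genes of the pathway beside Tlr2.

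Tlr2, chr3:83841761-83841791, minus strand: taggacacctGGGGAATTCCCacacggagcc
Nfkbia, chr12:55492657-55492686, minus strand: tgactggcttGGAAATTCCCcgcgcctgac
Nfkbie, chr17:45555584-45555613, plus strand: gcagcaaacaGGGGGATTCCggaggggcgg
Nfkb2, chr19:46304688-46304718, plus strand: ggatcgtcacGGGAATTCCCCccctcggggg
Bcl10, chr3:145924012-145924040, plus strand: gcgaaggcgGGGAGATCCCgctaaactga
Tlr3, chr8:45410572-45410601, minus strand: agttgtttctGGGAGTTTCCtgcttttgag
Rel, chr11:23771041-23771071, minus strand: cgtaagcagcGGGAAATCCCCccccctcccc

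The Tlr2 match begins 173 bases before its start site and the Nfkbia match 29 bases before its own. Nfkb2 held further matches before this and other annotated starts, of which 1 is printed. Irak4, Chuk and Rela, also past 2-fold and with a promoter in the table, held no match in this window. Tlr4 and Ly96 had no entry in the table.

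For the 43 genes only, the side of the 2-fold line was compared over 13 other ways of scaling, correcting, filtering and naming the probes. Tlr4, Ly96, Chuk and Rela were past it on the same side in all 13, and Tlr2 and Irak4 in 10 each. The differences of these lay between 0.63 and 1.34 for Tlr2 and between 0.89 and 2.06 for Irak4. The 13 settings are not separate checks. Ly96, Chuk and Rela have 1 probe each, so percentile scalings, filters and naming only shift their difference by a constant. The series table nearly repeated quantile normalization, with Chuk at -3.07 in both.

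**Figure D5:**
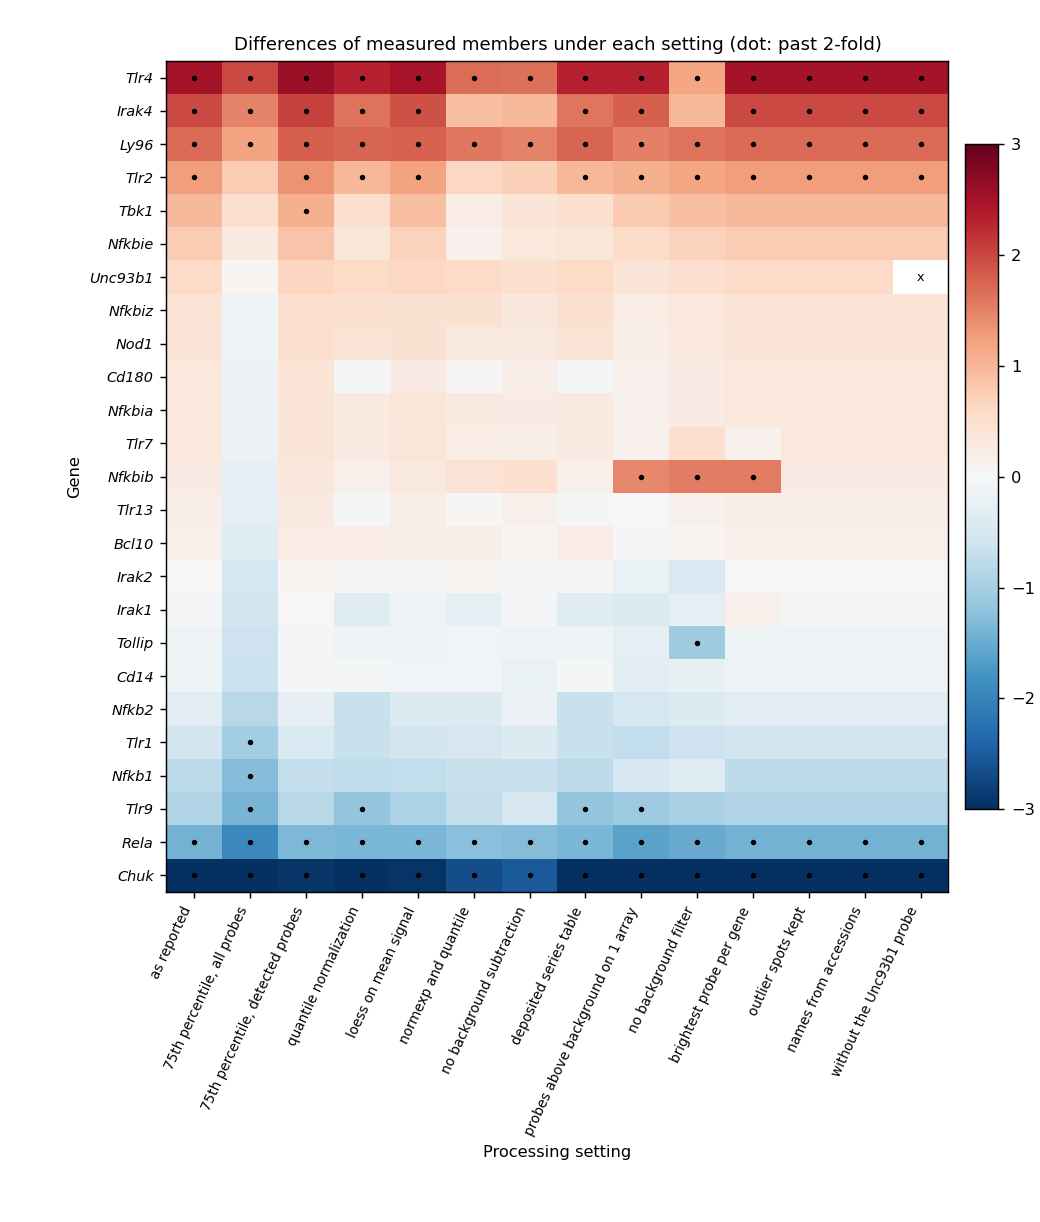
Difference of the 25 measured genes (rows) under the reported setting and 13 others (columns), with colour for the log2 difference, ending at 3 in either direction, and a dot where the gene is past 2-fold. The cross marks Unc93b1 where its only probe was left out. Tlr4, Ly96, Chuk and Rela have a dot in every column, whereas Tlr2 and Irak4 each lack it in 3.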

How the data were processed

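Both samples were hybridised, with Cy3 as the only dye, to Agilent mouse arrays on 1 slide, so group and array position cannot be told apart. Per the labels' protocols, total RNA was extracted with TRIzol and a column kit and amplified with a kit for low input. The deposited scanner files give each spot's fluorescence intensity after background subtraction by Agilent Feature Extraction: version 10.7.1.1 per the file headers, 9.5.1.1 per the submitters' processing notes. The authors' deposited series table holds normalized intensity and served as an alternative. Columns of samples outside the series numbered 0.

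Control spots and spots with an outlier mark (136 in control, 122 in atopic diathesis) were left out, log2 spots of a probe were averaged, and a gene was the mean of its probes well above background on both arrays. Gene names and mm9 probe coordinates are those of the files, and the names can be old. Promoters and gene order come from RefSeq tables of GRCm38.p6, and the builds were not combined. Python 3.11.15, pandas 2.3.3 and limma 3.58.1 were used, and the counting of genes past 2-fold was tested on simulated data. No test was run, for want of residual error. The number of arrays limits the precision.

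Every member is named, with its values. Of the 44 further genes, those at least 2-fold from the median gene or with a bound of at least 2-fold are named by rule. Tnf, Icam1, Il6 and Tab1 were added after their values were seen. The members and lists were chosen with earlier results of these data known. Alternatives were 4 other scalings, normexp with an offset of 50 followed by quantile normalization, unsubtracted signal, the series table, the brightest probe of a gene, other background filters, kept outlier spots and names from accessions. Leaving out the Unc93b1 probe was added after seeing the data.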

Additional observations from a re-analysis of the deposited data

How the results depend on the processing

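Scaling to the 75th percentile of all probes gave 5 lower genes and a median of -0.25 for the measured genes of the pathway, while it put the median of all measured genes at -0.50. The other shifts of that median past 0.1 were -0.17 with quantile normalization, -0.17 in the deposited series table and -0.10 with normexp and quantile normalization together. The higher share of all genes past 2-fold was 52.6% as reported, 28.3% with the 75th percentile of all probes, 42.0% with quantile normalization, 42.0% in the series table and 64.6% with no background filter. The count of higher pathway genes was 2 with normexp and quantile normalization together and 2 without background subtraction, which left Tlr4 and Ly96. Lower genes numbered 4 when probes well above background on at least 1 array were kept, and with no background filter there were 8 higher and 4 lower genes, some of them undetected on both arrays. Of the single-gene values under the alternatives, 253 moved by less than the spot error and 71 by more. The counts of genes well above background on 1 array only did not change with outlier spots kept or with names from accessions. Leaving out the Unc93b1 probe, which was well above background on both arrays, could not change them. No other alternative was run on these counts. No paired analysis was possible because each group is 1 sample with no replicate. No replicate could be left out either, and the dim signals of the adaptors, Tlr3, Tlr5, Tlr6 and Tlr8 limit what can be said of them.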
